A study of Mus musculus with 2 samples.

Results

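Macrophages of the newborn heart were followed through 10 genes: Csf1r, Cd68, Adgre1, Lyz2, Mrc1, C1qa, C1qb, C1qc, Cx3cr1 and Ccr2. They were chosen by name, as genes commonly used to recognise macrophages, and all 10 were found among the 55536 mouse genes of the deposited tables. The tissue was whole heart from 4-day-old male mice of the strain B6CASTF1/J, the F1 offspring of C57BL/6J and CAST/EiJ, supplied by The Jackson Laboratory. Both libraries belong to 1 group, with no treatment, no engineered allele and no control group, so the values describe a level and the difference between 2 hearts. The sample records number the animals 03 and 04 and share a donor record, and if both came from 1 mouse the SD measures technical error alone.

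Macrophages are phagocytes that live in most organs. In the mouse heart they are seeded before birth from the yolk sac and the fetal liver, renew themselves in place, clear dying cells and the debris of cardiomyocytes, and are joined by cells that mature from blood monocytes. Csf1r is the receptor that keeps them alive, Cx3cr1 and Ccr2 are chemokine receptors, Mrc1 is the mannose receptor, Cd68 and Lyz2 are proteins of lysosomes and granules, Adgre1 is the antigen F4/80, and C1qa, C1qb and C1qc form the recognition molecule of the classical complement pathway. Low Ccr2 is commonly used to mark the resident cells and high Ccr2 those that came from monocytes.

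Total RNA with ribosomal RNA reduced was sequenced, and mouse genes received 31512596 expected counts in replicate 1 against 35744013 in replicate 2. Levels are in TPM, a transcript abundance per length and relative to the whole library, given for each heart and as mean ± SD with n = 2. Expressed here means 1 TPM or more in each heart. The hearts are compared by the log2 ratio of replicate 2 to replicate 1 in scaled counts, with a 95% interval that covers counting error only. In whole tissue, fewer macrophages and less RNA per macrophage cannot be told apart. Heart identity was clear in both libraries: 10 of 10 cardiomyocyte genes were expressed, with Myh6, the atrial and adult myosin heavy chain, at 8663 and 7208 TPM.

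The macrophage genes were present at low levels. Of the 10, 9 were expressed, all but Ccr2, beside 53.8% of nuclear protein-coding genes and 23.8% of all mouse genes. The same shares apply wherever genes of another list are counted as expressed below. Their TPM summed to 50.3 in replicate 1 and 49.6 in replicate 2. The 10 cardiomyocyte genes summed to 31013 and 27468 TPM, the 10 endothelial genes to 934 and 843, and the 10 fibroblast genes to 1667 and 2207. Lyz2, the highest of the macrophage genes, lay at percentile 52.0 of the 11854 expressed nuclear protein-coding genes, and Adgre1, the lowest of those expressed, at 5.03.

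**Figure D1:**
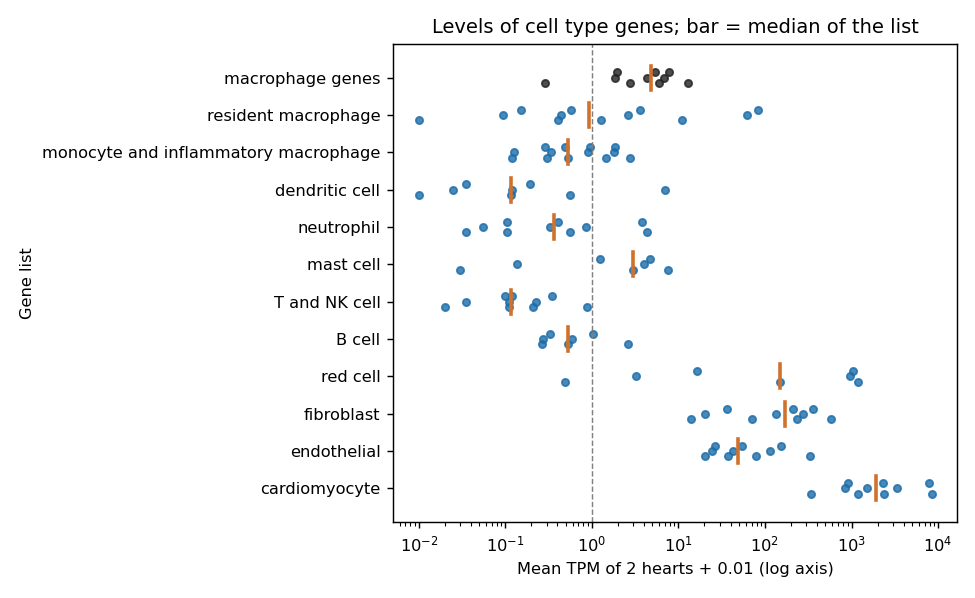
Mean TPM of 2 hearts plus 0.01 on a log axis for each gene of 12 lists, 1 point per gene, with the list median as an orange bar and a TPM of 1 as a dashed line. The macrophage genes have a median of 4.84 TPM, between the dendritic cell genes at 0.107 and the fibroblast genes at 172.

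Levels ordered the genes in nearly the same way in both hearts. Lyz2 stood first, then Csf1r, the 3 C1q chains, Mrc1, Cx3cr1, Cd68, Adgre1 and Ccr2, and only Cd68 and Adgre1 changed places between the hearts. Ranges over the 2 hearts overlapped between Csf1r and C1qb, C1qb and C1qa, C1qa and C1qc, and Cd68 and Adgre1. They did not overlap between Lyz2 and Csf1r, C1qc and Mrc1, Mrc1 and Cx3cr1, Cx3cr1 and Cd68, or Adgre1 and Ccr2. The second deposited quantification of these libraries put C1qc above C1qa in both hearts and Cd68 above Adgre1 in both. Its mean TPM was a median of 1.32 times that of the gene tables for these genes, against 1.37 over genes that reached a mean of 1 TPM by either quantification. The deposited tables also give an interval for each TPM, and it held the TPM in 20 of 20 cases for these genes.

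**Figure D2:**
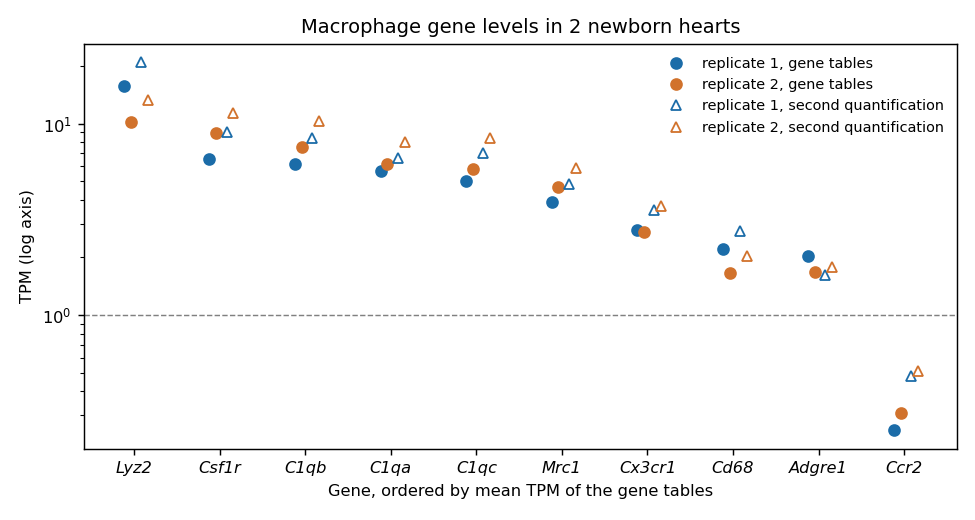
TPM on a log axis for each macrophage gene in replicate 1 (blue) and replicate 2 (orange), from the gene tables (circles) and the second quantification (triangles), with a dashed line at a TPM of 1. Lyz2 reaches 15.7 and 10.2, and Ccr2 at 0.25 and 0.31 is the only gene under the line.

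Csf1r, the tyrosine kinase receptor for Csf1 and Il34, was measured at 6.53 TPM in replicate 1 and 8.91 in replicate 2 (7.72 ± 1.68), on 554 and 764 expected counts. Replicate 2 was higher, with a log2 ratio of 0.35 (interval 0.19 to 0.51), and 0.33 by the second quantification. Csf1r-201, a protein-coding transcript of 3870 nt, carried 81.2% of the gene's TPM in replicate 1 and 63.2% in replicate 2. A longer one, Csf1r-202 of 4701 nt, carried 8.12% and 10.7%. A short transcript of 416 nt, Csf1r-205, was given 4.56 and 20.4 counts, which came to 0.59 and 2.23 TPM, and the second quantification gave it none. The second quantification instead gave 1.09 and 2.20 TPM to another short transcript, Csf1r-203 of 776 nt, which had none in the gene tables. On Csf1r-201 alone the gene tables gave 5.30 and 5.64 TPM, a smaller difference than on the whole gene.

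The ligands of these receptors were measured in the same tissue. Csf1, the growth factor that Csf1r binds, was at 11.5 TPM in replicate 1 and 6.46 in replicate 2, on 821 and 589 counts, with a log2 ratio of -0.59 (interval -0.75 to -0.44). It was thus lower in the heart where its receptor was higher. Il34, the other ligand of Csf1r, was at 0.91 and 0.97 TPM on 14 and 24 counts. Cx3cl1, the ligand of Cx3cr1, was at 2.13 and 1.70 TPM, and its interval of -0.56 to 0.14 included 0. Ccl2, the main ligand of Ccr2, was at 3.22 and 0.90 TPM on 57 and 19 counts, with a log2 ratio of -1.60 (interval -2.53 to -0.93). It was the single ligand over 2-fold apart, beside 2.22% of 16271 filtered genes that were over 2-fold lower in replicate 2. Of 7 ligands 2 were expressed. Of the 4 that passed the count filter 1 was higher in replicate 2, beside 49.6% of filtered genes, with a median log2 ratio of -0.40.

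Lyz2, the lysozyme of myeloid cells, is encoded at chr10:117277331-117282321 (mm10, minus strand). It was measured at 15.7 TPM in replicate 1 and 10.2 in replicate 2 (12.9 ± 3.93), on 465 and 357 expected counts. Replicate 1 was higher, with a log2 ratio of -0.50 (interval -0.70 to -0.30), and -0.54 by the second quantification. It was the single macrophage gene whose interval lay below 0, beside 22.2% of filtered genes. Lyz2 over Csf1r in TPM was 2.41 in replicate 1 and 1.14 in replicate 2, so the 2 genes did not keep a fixed proportion.

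Lyz2 has a near copy, Lyz1, the lysozyme of Paneth cells, which lies next to it, and reads from identical stretches could be assigned to either. The first 300 bases of the coding sequences are shown because their differences are what allows reads to be told apart. Both are taken from the GENCODE M21 transcripts, minus strand of chromosome 10, with exons joined, the whole coding regions spanning chr10:117278121-117282242 for Lyz2 and chr10:117288583-117292838 for Lyz1, and capitals mark the positions at which they differ.
Lyz2: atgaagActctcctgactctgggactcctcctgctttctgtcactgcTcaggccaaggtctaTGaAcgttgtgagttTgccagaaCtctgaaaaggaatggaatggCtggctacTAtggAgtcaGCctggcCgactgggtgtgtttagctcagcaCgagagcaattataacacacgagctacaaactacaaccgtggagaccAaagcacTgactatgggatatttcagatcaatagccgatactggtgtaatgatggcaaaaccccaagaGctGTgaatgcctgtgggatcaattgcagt
Lyz1: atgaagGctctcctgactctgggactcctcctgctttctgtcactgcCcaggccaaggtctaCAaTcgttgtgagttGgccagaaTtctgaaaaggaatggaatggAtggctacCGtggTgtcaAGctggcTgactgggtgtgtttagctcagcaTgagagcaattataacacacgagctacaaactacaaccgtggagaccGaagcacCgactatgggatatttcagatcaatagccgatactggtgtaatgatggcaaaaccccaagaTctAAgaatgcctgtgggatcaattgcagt

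Of the differences, 20 lie in the stretch shown. The whole coding sequences were each 447 nt long and differed at 22 positions, an identity of 95.1%, with a longest identical run of 118 nt. Over the whole Lyz2 transcript, 24 of 1217 windows of 100 nt (1.97%) also occurred in Lyz1, and 422 of 1286 windows of 31 nt (32.8%). Lyz1 itself was listed at 1.42 and 0.94 TPM, on 40.1 and 31.4 expected counts, fractional values of the kind that expected counts take where reads match several transcripts. Its log2 ratio of -0.46 had an interval of -1.21 to 0.23. The Lyz2 level exceeded the Lyz1 level in both hearts and in both quantifications, and Lyz1 values are uncertain to the extent that reads were divided between them.

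Lyz2 is also made by neutrophils, by monocytes and by alveolar cells of the lung, so their genes are given beside it. Of 10 neutrophil genes 2 were expressed, S100a8 at 5.74 and 2.86 TPM and S100a9 at 4.25 and 3.41, and the list summed to 12.8 and 8.18 TPM. Neutrophil granule genes were near the floor, with Elane on 1 and 0 counts, Mpo on 3 and 4, and Ly6g on 1 and 1. All 4 neutrophil genes that passed the count filter were lower in replicate 2, with a median log2 ratio of -0.38. The interval lay below 0 for S100a8 (-1.55 to -0.21) and included 0 for S100a9, Ngp and Csf3r. Of those that did not pass, Elane, Retnlg and Cxcr2 had fewer counts in replicate 2, and Mpo and Camp had more. Of all filtered genes 49.6% were higher there. Of 8 genes of lung epithelium, a list added after the values were seen, none was expressed. They summed to 3.97 and 0.94 TPM, with Sftpc, a surfactant protein, at 1.98 and 0.60 and Sftpd at 0 counts in both hearts. The summed TPM of both lists was lower in replicate 2, as was Lyz2, but only 1 lung gene passed the count filter. The part of these lists in the Lyz2 difference was not tested.

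The 3 chains of C1q are encoded side by side on the minus strand of chromosome 4, C1qa at chr4:136895917-136898803, C1qc at chr4:136889804-136893065 and C1qb at chr4:136880129-136886187. Each molecule of C1q holds the chains in equal number. C1qb was measured at 6.16 TPM in replicate 1 and 7.51 in replicate 2 (6.84 ± 0.955), on 148 and 214 counts. C1qa was at 5.64 and 6.16 TPM (5.90 ± 0.368), on 129 and 167 counts. C1qc was at 5.03 and 5.78 TPM (5.41 ± 0.530), on 134 and 184 counts.

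All 3 chains were higher in replicate 2, by log2 ratios of 0.41 for C1qb (interval 0.11 to 0.73), 0.34 for C1qc (0.01 to 0.67) and 0.25 for C1qa (-0.08 to 0.60), the last with an interval that included 0. Within a heart the chains stayed close to one another. C1qb exceeded C1qc by 0.33 ± 0.06 on the log2 TPM scale in the gene tables and by 0.28 ± 0.02 in the second quantification. C1qa exceeded C1qc by 0.13 ± 0.05 in the gene tables, whereas the second quantification placed it below C1qc by a log2 ratio of -0.07, so the order of these chains rests on the quantification.

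Promoters of the macrophage genes were read for their sequence, and any part in the differences between the hearts was not tested. Promoters of 7 of the 10 genes were taken from the RefSeq promoter table (GRCm38.p6). C1qa and Adgre1 had no entry there, and Csf1r was left out of the search. The 250 bases before each start site were searched on both strands for GAGGAA and for AGGAAGT. Spi1 (PU.1), the transcription factor of the myeloid lineage, is known to bind these sequences. The pair was chosen after the promoters had been read, so its frequency in them is no test against other promoters. GAGGAA occurred upstream of Cd68, Mrc1, C1qb and C1qc, and AGGAAGT upstream of Lyz2, Mrc1, C1qb and C1qc. At least 1 of the pair occurred in 5 of 7, and neither in the windows of Cx3cr1 and Ccr2. Of 32851 promoters in the table, 23.3% held GAGGAA, 7.69% held AGGAAGT and 27.3% held either. The sites of AGGAAGT are shown with 20 bases on each side, in capitals and in the orientation of the gene, where each of them reads ACTTCCT.
C1qb, chr4:136886227-136886273 (minus strand): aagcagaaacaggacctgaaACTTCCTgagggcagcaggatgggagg
C1qc, chr4:136893083-136893129 (minus strand): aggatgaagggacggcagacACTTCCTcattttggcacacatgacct
Mrc1, chr2:14229183-14229229 (plus strand): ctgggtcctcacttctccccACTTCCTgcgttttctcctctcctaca
Lyz2, chr10:117282346-117282392 (minus strand): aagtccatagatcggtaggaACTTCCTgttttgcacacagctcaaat
Lyz1, chr10:117292942-117292988 (minus strand): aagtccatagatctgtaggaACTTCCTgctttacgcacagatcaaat

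The match begins 53 bases before the RefSeq start of C1qb, 195 before that of C1qc, 211 before that of Mrc1 and 100 before those of Lyz2 and Lyz1. In C1qc a match to GAGGAA on the same strand overlaps it. Upstream of Lyz2 and Lyz1 the 250 bases were identical at 152 positions without gaps (60.8%), and the site lies in both. A match describes letters in a window, and binding was not measured. Spi1 itself was expressed at 1.78 and 1.49 TPM on 45 and 52 counts.

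Mrc1, the mannose receptor, lies at chr2:14229392-14332057. It was measured at 3.89 TPM in replicate 1 and 4.66 in replicate 2 (4.28 ± 0.544), on 492 and 705 counts, the largest number after Csf1r. Replicate 2 was higher, with a log2 ratio of 0.40 (interval 0.23 to 0.57). Mrc1-201 carried 97.7% and 99.4% of its TPM. Mrc1 stood in a fairly steady proportion to Csf1r, at 0.596 and 0.523 of its TPM.

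Cx3cr1, the fractalkine receptor, lies at chr9:119901616-120069879 on the minus strand. It was measured at 2.79 TPM in replicate 1 and 2.73 in replicate 2 (2.76 ± 0.0424), on 248 and 285 counts, and its log2 ratio of 0.08 had an interval of -0.17 to 0.34. The quantifications placed its reads on different transcripts. In the gene tables Cx3cr1-201 carried 100% and 86.1% of the TPM, and in the second quantification the leading transcript was Cx3cr1-203 in replicate 1, with 45.2%, and Cx3cr1-202 in replicate 2, with 42.8%. The level of the whole gene differed less, the second quantification giving 1.31 times the mean of the gene tables.

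Ccr2, the receptor that draws monocytes out of the bone marrow, lies at chr9:124101950-124113557. It was measured at 0.25 TPM in replicate 1 and 0.31 in replicate 2 (0.28 ± 0.0424), on 26 counts (exact Poisson interval 17.0 to 38.1) and 37.8 counts (26.9 to 52.2). It was thus present but below the level called expressed, in both hearts. The second quantification gave 0.478 and 0.513 TPM, 1.77 times the gene tables, which also lies below 1. Ccr2 over Cx3cr1 was 0.0896 in replicate 1 and 0.114 in replicate 2 in TPM. Ccr2-201 led in replicate 1 with 52.0% of its TPM and Ccr2-202 in replicate 2 with 61.3%, a change that rests on 9.19 and 18.7 counts.

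Cd68, a glycoprotein of lysosomal membranes, lies at chr11:69664213-69666153. It was measured at 2.22 TPM in replicate 1 and 1.66 in replicate 2 (1.94 ± 0.396), on 61 and 54 counts, with a log2 ratio of -0.28 whose interval of -0.85 to 0.26 included 0. Adgre1, an adhesion receptor that marks mature macrophages, lies at chr17:57358691-57483527. It was measured at 2.04 TPM in replicate 1 and 1.68 in replicate 2 (1.86 ± 0.255), on 110 and 130 counts. Its TPM was lower in replicate 2 while its scaled counts gave a log2 ratio of 0.12 (interval -0.25 to 0.50). Adgre1-202, its main transcript, was at 1.39 and 1.42 TPM. The short transcript Adgre1-203, of 402 nt, was given 0.33 TPM on 2.46 counts in replicate 1 and none in replicate 2, and neither it nor Adgre1-204 was given any count by the second quantification.

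**Figure D3:**
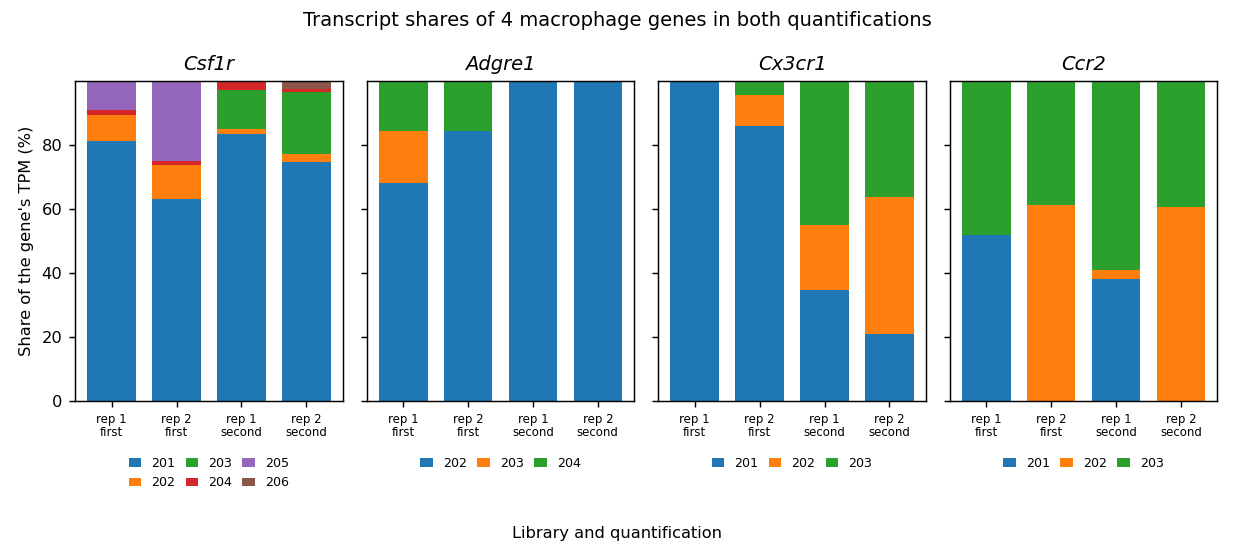
Stacked bars of the share (%) of each gene's TPM on its transcripts, for replicates 1 and 2 in the gene tables' quantification (first) and in the second one, for Csf1r, Adgre1, Cx3cr1 and Ccr2. In replicate 2, Cx3cr1-201 carries 86.1% in the first and 20.8% in the second, and Csf1r-205 and the short Adgre1 transcripts appear in the first alone.

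The 10 genes have 28 annotated transcripts, and 3 of the genes have 1 each. Of the 7 with several, 5 had the same leading transcript in both hearts and both quantifications. The exceptions were Cx3cr1 and Ccr2. For 8 of the 10 genes, no window of 100 nt of the leading transcript occurred in another gene.

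Between the hearts the macrophage genes differed by little. All 10 passed the count filter, 8 were higher in replicate 2 and 2 were lower, Lyz2 and Cd68, beside 49.6% of filtered genes that were higher. Their median log2 ratio was 0.29, against -0.003 over all filtered genes. None was over 2-fold apart, beside 3.06% of filtered genes. The counting interval lay above 0 for Csf1r, Mrc1, C1qb and C1qc, 4 of 10, beside 23.4% of filtered genes. On deposited TPM in place of scaled counts, 6 were higher and 4 lower, with a median of 0.16 against -0.13 over all filtered genes, and the signs of Adgre1 and Cx3cr1 turned. With 1 library for each heart no test of these differences was made.

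**Figure D4:**
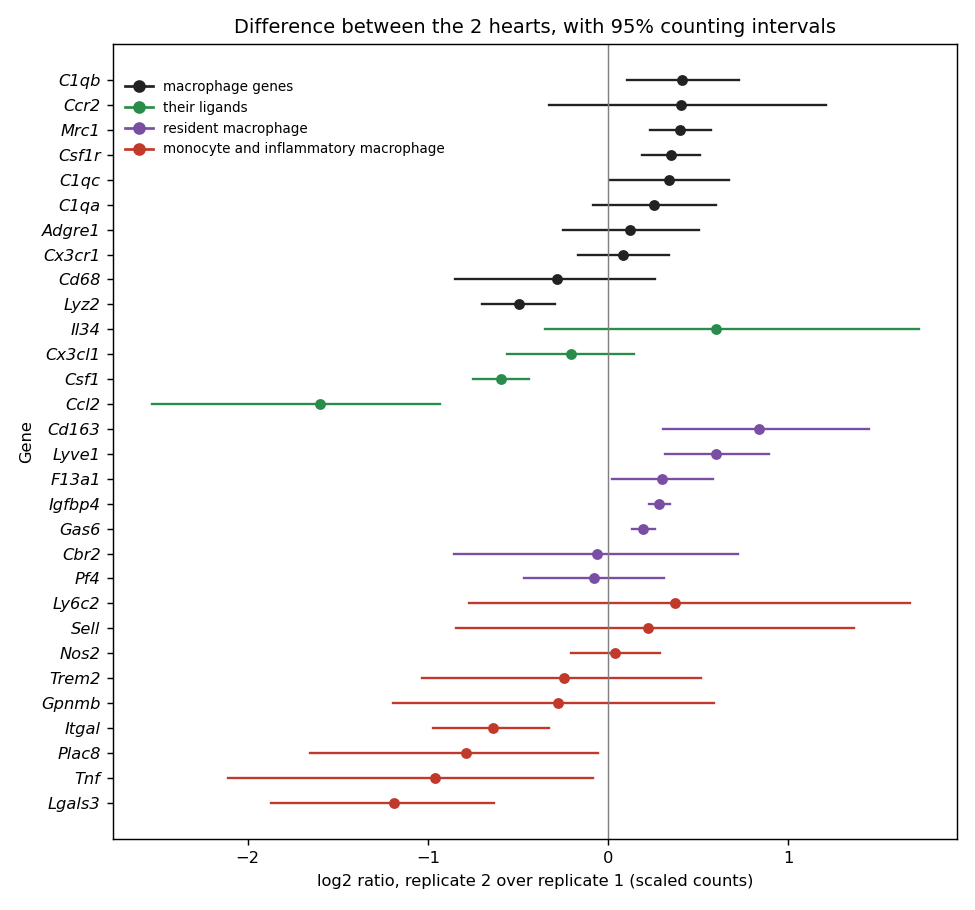
Log2 ratio of replicate 2 over replicate 1 from scaled counts for macrophage genes, their ligands, resident macrophage genes and monocyte or inflammatory genes that passed the count filter, with 95% counting intervals as lines. Among the macrophage genes Lyz2 lies lowest at -0.50 and C1qb highest at 0.41, and Ccl2 and Lgals3 lie below -1.

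Of 12 genes known from resident macrophages 6 were expressed, beside 53.8% of nuclear protein-coding genes. Of the 7 that passed the filter 5 were higher in replicate 2, beside 49.6% of filtered genes, with a median log2 ratio of 0.28 on scaled counts and 0.06 on TPM. Of the 5 that did not pass, Folr2, Timd4 and Vsig4 had fewer counts in replicate 2, Clec10a had more, and Cd209f had none in either. Lyve1, a hyaluronan receptor of resident macrophages and of lymphatic vessels, was at 2.86 and 4.29 TPM (log2 ratio 0.60, interval 0.32 to 0.90). Cd163, the scavenger receptor for haemoglobin, was at 0.42 and 0.71 TPM (0.84, interval 0.31 to 1.44). F13a1, a coagulation factor chain, was at 2.59 and 2.63 TPM (0.30, interval 0.02 to 0.58). The highest of the list were Igfbp4 at 83.9 ± 9.86, Gas6 at 62.7 ± 1.98 and Pf4 at 11.1 ± 2.14 TPM, and other heart cells and platelets also make these. The list's median log2 ratio is that of Igfbp4 itself, and Gas6 (0.19) is also among the 5 that were higher. Timd4 and Folr2, which mark self-renewing cardiac macrophages, were on 8 and 7 and on 9 and 4 counts, and Vsig4 on 4 and 2. Cd209f had 0 counts in both hearts, with an exact Poisson interval of up to 3.69 counts. The second quantification gave it 1 count in replicate 1 and 0 in replicate 2.

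Of 13 genes of monocytes and inflammatory macrophages 3 were expressed, Plac8, Nos2 and Lgals3. Of 9 that passed the filter 3 were higher in replicate 2, beside 49.6% of filtered genes, and 6 lower, with a median log2 ratio of -0.28. Of the 4 that did not pass, Il1b and Spp1 had fewer counts in replicate 2, and Chil3 (3 and 6) and Arg1 (1 and 4) had more. Lgals3, galectin-3, was at 2.62 and 1.09 TPM on 74 and 34 counts (log2 ratio -1.19, interval -1.87 to -0.63). Plac8, a gene of circulating monocytes, was at 2.38 and 1.24 TPM (-0.79, interval -1.65 to -0.06). The cytokine genes were low: Tnf had 27 and 14 counts, Il1b 16 and 2, and Spp1, osteopontin, 25 and 5. Ly6c2, which marks classical monocytes, was at 0.81 and 1.07 TPM on 11.4 and 16.3 counts.

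Of 16 signalling and transcription genes of the myeloid lineage 13 were expressed, led by Csf2ra at 8.16 ± 1.14, Tyrobp, an adaptor of activating receptors, at 6.18 ± 0.721 and Laptm5, a lysosomal protein of blood cells, at 5.70 ± 0.0849 TPM. Of the 16, 5 were higher and 11 lower in replicate 2, with a median of -0.13, beside 49.6% of filtered genes that were higher. Ptprc, the antigen CD45 of all leukocytes, was at 2.47 and 1.52 TPM (log2 ratio -0.58, interval -0.92 to -0.26). The integrin chains Itgam and Itgb2 had ratios of -0.43 and -0.49, each with an interval below 0, as had 22.2% of filtered genes. Irf8, a transcription factor of the lineage, was at 3.82 and 3.51 TPM. Cebpa, a transcription factor of myeloid cells, differed the other way, at 0.91 and 1.33 TPM (0.65, interval 0.18 to 1.18).

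Class II antigen presentation was low. Of 7 genes 5 were expressed, beside 53.8% of nuclear protein-coding genes. Cd74, the invariant chain, was at 4.40 and 3.89 TPM and H2-Aa, a class II chain, at 1.00 and 1.27. Ciita, the regulator of this pathway, was on 3 and 8 counts in the gene tables and on 20.1 and 19.2 in the second quantification. Of the 5 that passed the filter 4 were higher in replicate 2, beside 49.6% of filtered genes. Their median was 0.42, on 25 to 129 counts each.

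The complement genes downstream of C1q and beside it were expressed in 9 of 13 cases, beside 53.8% of nuclear protein-coding genes. C1ra and C1s1, the proteases that bind C1q, were at 1.36 ± 0.0849 and 2.95 ± 0.537 TPM, below each of the C1q chains. C3, the central component, was at 23.9 ± 1.92 TPM, and Serping1, the inhibitor of those proteases, at 11.1 ± 2.16. C1s1 and Serping1 were higher in replicate 2, by log2 ratios of 0.71 (interval 0.41 to 1.02) and 0.54 (0.36 to 0.73). Cfb, of the alternative pathway, was lower, at 1.03 and 0.37 TPM (-0.93, interval -1.70 to -0.29). Of the 12 filtered genes 8 were higher and 4 lower, with a median of 0.12, beside 49.6% of all filtered genes that were higher.

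Receptors for uptake and lysosomal genes gave levels from wider sources. Of 11 uptake receptors 6 were expressed, beside 53.8% of nuclear protein-coding genes. They were led by Cd36 at 462 ± 0.0707 TPM, a fatty acid transporter that cardiomyocytes and endothelium also make, Axl at 37.2 ± 0.997 and Stab1 at 31.7 ± 0.962. Mertk, the receptor with which macrophages engulf dying cells, was at 2.54 and 1.72 TPM (log2 ratio -0.43, interval -0.70 to -0.16). All 12 lysosomal genes were expressed, and Ctss, the cathepsin of antigen-presenting cells, was lowest at 3.24 and 3.79 TPM. Of the 6 genes listed for microglia, the macrophages of the brain, Tmem119 was at 3.50 and 5.75 TPM and P2ry12 at 0.60 and 0.99. Siglech was on 0 and 1 count in the gene tables and on 5.76 and 5.08 in the second quantification.

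Markers of other blood and stromal cells stand beside these results. Of 8 dendritic cell genes 1 was expressed, Zbtb46 at 6.95 and 6.93 TPM, a gene that endothelium also makes. In the gene tables Xcr1 had 0 counts in both hearts and Flt3 1 and 2. The second quantification gave Xcr1 15.5 and 8.32 counts, at 0.171 and 0.0807 TPM. None of 10 genes of T and NK cells was expressed, and 1 of 7 B cell genes was, Ighm at 2.69 and 2.52 TPM. Of 7 mast cell genes 4 were expressed, and Tpsb2, a tryptase, was at 2.88 and 6.59 TPM (log2 ratio 1.31, interval 0.93 to 1.75). Of the 5 mast cell genes that passed the filter 4 were higher in replicate 2, beside 49.6% of filtered genes. Kit, the highest of that list, was lower, at 8.87 and 6.09 TPM (-0.26, interval -0.40 to -0.12). Genes of red cells summed to 1409 and 5293 TPM. All 7 were higher in replicate 2, beside 49.6% of filtered genes, with a median of 1.90. Fibroblast genes were higher in 9 of 10 cases, beside the same 49.6%, with a median of 0.48. Endothelial and cardiomyocyte genes had medians of 0.04 and -0.04. The part of these differences in those of the macrophage genes was not tested.

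**Figure D5:**
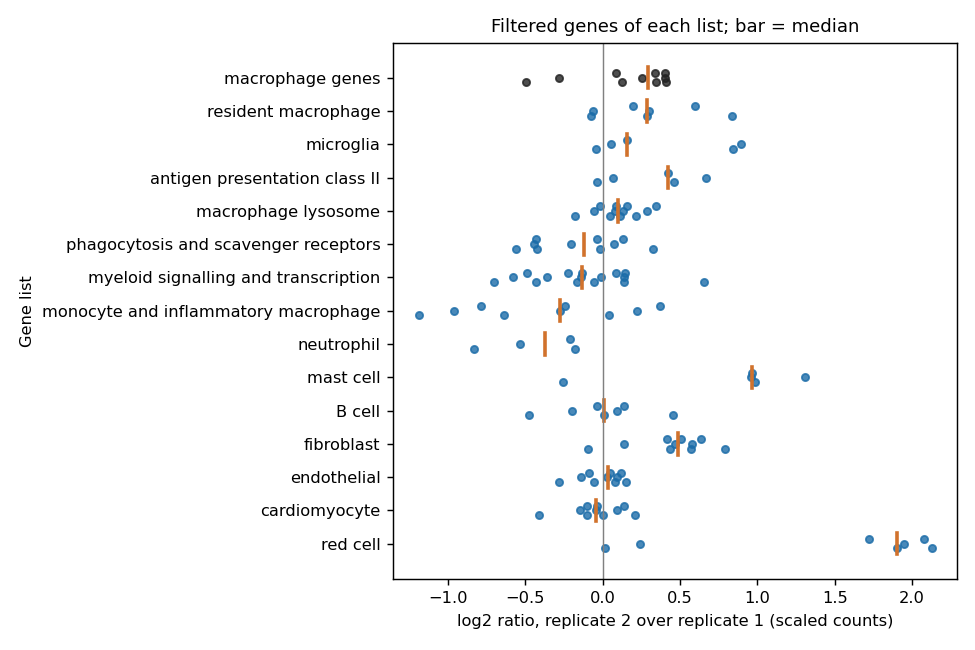
Log2 ratio of replicate 2 over replicate 1 from scaled counts for each gene of 15 lists that passed the count filter, 1 point per gene, with the list median as an orange bar. The macrophage genes (median 0.29) and the resident macrophage genes (0.28, the ratio of Igfbp4, which other heart cells also make) lie to the right of 0. The monocyte and inflammatory genes (-0.28) and the neutrophil genes (-0.38) lie to the left of 0, and the red cell genes (1.90) farthest right.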

How the data were processed

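Total RNA from heart was measured in 2 libraries of 1 group, with ERCC spike-ins and 300 ng of input RNA each, per the labels. Per the file headers, the authors' first tables give each gene and transcript an expected count and a TPM under RSEM's column names, with the percent of a gene's TPM on each transcript and bounds of a TPM interval of unstated level (a score here). A second deposited transcript table, with kallisto's column names, gives an estimated count and a TPM, which were summed per gene. Notes deposited with the files name mm10 and GENCODE M21. For the aligner, versions and settings: not given in the sources used here. Reads of an F1 hybrid were assigned to 1 reference genome, and the effect of CAST/EiJ alleles on these levels was not tested.

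Mouse genes alone entered library sizes. The 96 spike-ins and 26248 numbered rows without a gene name were excluded (the latter held 2 and 4 counts, 6.31e-06% and 1.11e-05% of the total). The libraries differed beyond sampling noise (chi-square per degree of freedom 27.4 over 18752 genes) and were kept as 2 samples. Nothing beyond the labels says that they came from separate animals. For 86 genes absent from the second tables its count was set to 0. Expected counts were rounded, filtered with filterByExpr and scaled by TMM with edgeR 4.0.16 (R 4.3.3) and a prior count of 2. This step was tested on simulated data. Intervals of ratios are exact conditional binomial and those of counts exact Poisson, both at 95%, for counting error only, since PCR copies are not independent molecules. Log2 ratios of TPM used a pseudocount of 0.1, and quotients of TPM between genes used none. DESeq2 1.42.0 size factors, library totals, spike-in scaling, no filter, a prior count of 0.5, other TPM limits, another TPM denominator and the second quantification were alternatives, and TPM in place of counts was added after the data were seen. Tables and figures were made with pandas 2.3.3, NumPy 2.4.6 and SciPy 1.17.1 in Python 3.11.15.

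The macrophage genes and gene lists were chosen with earlier results of these data known, and the motifs and the lung list after values were seen. The rule for named genes took all 10 macrophage genes and, of each other list, up to 3 leading genes, counted genes under a TPM of 1, and those over 2-fold apart on at least 100 counts. Not every gene that meets it is named, and many listed genes enter only the counts and sums of their list. Other listed genes that are named, such as Lyve1, Ptprc and Lgals3, were chosen after their values were seen. Some listed genes are not reported here.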

Additional observations from a re-analysis of the deposited data

How the results depend on the processing

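The number of macrophage genes expressed was 9 in the second quantification and with either replicate left out, and 7 at a TPM limit of 2. Summed TPM, 49.9 in the gene tables, was 65.2 by the second quantification and 113 when TPM was taken over nuclear protein-coding genes alone, and leaving out 1 replicate gave 49.6 to 50.3. The number of genes higher in replicate 2 stayed at 8 under DESeq2 size factors, library totals, spike-in scaling, no count filter, a prior count of 0.5 and the second quantification, with a median log2 ratio of 0.23 to 0.34. With deposited TPM in place of counts, an alternative added after the data were seen, it was 6 with a median of 0.16, Adgre1 turned to -0.27 and Cx3cr1 to -0.030, and the median of all filtered genes was -0.13. The second quantification turned C1qa over C1qc to -0.075. Ccr2, on 26 and 37.8 counts, and Cd68, on 61 and 54, are limited by depth. No paired analysis was possible because the 2 libraries form 1 group and no groups were compared.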
